A study of Homo sapiens with 3 samples.

Results

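The genes described here build the glycosylphosphatidylinositol (GPI) anchor, attach it to proteins and reshape it afterwards. They were chosen by their role in that pathway, as a list of 31 symbols drawn up with earlier results of the comparison of NONO siRNA with control siRNA in view. The rule took those whose identifiers had a value in all 3 libraries, which held for 30 of the 31, against 21308 genes in all. Because the pathway was picked with this comparison known, its folds, counts and p-values are given as a description, and nothing is read from how many of its genes moved. The gene left out was PIGY, a small subunit of the first enzyme of the pathway, which was not analysed here. In GENCODE 29 all 217 exon bases of PIGY lie within PYURF on the same strand.

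A GPI anchor is a glycolipid that holds certain proteins on the outer face of the plasma membrane, among them the complement regulator CD59, the urokinase receptor PLAUR and the prion protein PRNP. It is assembled step by step in the membrane of the endoplasmic reticulum (ER) on phosphatidylinositol. An N-acetylglucosamine is added and then deacetylated, the inositol is acylated, and mannoses and ethanolamine phosphates follow, with dolichol phosphate mannose as the mannose donor. A membrane complex, the GPI transamidase, then cleaves a signal at the end of the protein and joins the new end to the finished anchor, and enzymes of the ER and Golgi trim the anchor on its way to the cell surface.

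The study addressed how NONO, an RNA- and DNA-binding protein that takes part in transcription and splicing, acts in bladder cancer. UM-UC-3, a human bladder cancer line, received 75 nM of NONO siRNA 1, 75 nM of NONO siRNA 2 or 75 nM of a control siRNA for 48 h, by lipofection. Each treatment gave 1 RNA sequencing library, and the labels do not say whether the libraries came from separate cultures. Values are CPM, the reads of a gene scaled so that every library has the same total, and they implied 29408573 and 28594569 reads with NONO siRNA 1 and 2 and 27681990 reads in the control.

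NONO stood at 79.5 CPM with NONO siRNA 1 and 104 CPM with NONO siRNA 2, against 823 CPM in the control, so that both knockdown libraries matched their labels. Of 14 epithelial and bladder markers, 9 had a value in all 3 libraries, led by the keratins KRT18 (49.0, 93.3 and 111 CPM with siRNA 1, siRNA 2 and control) and KRT8 (43.0, 85.4 and 77.1 CPM), while EPCAM, CDH1, UPK3A, KRT5 and KRT20 had not. The 9 summed to 102 and 190 CPM with NONO siRNA 1 and 2 and to 200.4 CPM in the control. All 4 mesenchymal markers had a value, 2 of them below the control with both siRNAs and 2 above it. VIM had 947 and 960 CPM with NONO siRNA 1 and 2 and 1380 CPM in the control, FN1 had 28.4, 38.5 and 38.8 CPM in the same order, CDH2 had 70.0, 80.8 and 54.6 CPM, and ZEB1 had 207, 191 and 176 CPM. The 3 of 6 fibroblast markers with a value summed to 15.8 and 18.4 CPM with NONO siRNA 1 and 2 and to 25.7 CPM in the control. Of 6 leukocyte markers only ITGAM had a value in all 3, of at most 1.30 CPM. The 4 endothelial markers with a value summed to 16.5 and 31.8 CPM with NONO siRNA 1 and 2 and to 58.0 CPM in the control, nearly all of it TIE1, while CDH5 and KDR had none, and their part in the results below was not tested.

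The siRNA strands are printed here because they define the 3 treatments. Each is written 5′ to 3′ without its TT overhang, and capitals mark the seed, bases 2 to 8, through which an siRNA strand can pair with other transcripts in the way of a microRNA. The labelled strands of both NONO siRNAs match the NONO coding sequence, in transcript NONO-201 at positions 506 to 524 for siRNA 1 and 647 to 665 for siRNA 2. The strand that pairs with NONO is therefore the opposite one. Neither control strand matches NONO, and which of them would act as the guide is not given in the sources used here.
NONO siRNA 1, labelled strand: gGCGAAGUcuucauucaua
NONO siRNA 1, opposite strand: uAUGAAUGaagacuucgcc
NONO siRNA 2, labelled strand: gCAUCCCUuacaguucgaa
NONO siRNA 2, opposite strand: uUCGAACUguaagggaugc
Control siRNA, labelled strand: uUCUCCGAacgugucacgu
Control siRNA, opposite strand: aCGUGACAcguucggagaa

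A single GPI gene passed the test across all genes. GPAA1, a transamidase subunit, rose with NONO siRNA and was nearly 3-fold above the control with either siRNA, whereas the other 29 did not pass. The call of GPAA1 lay close to the threshold and was lost under 6 alternative settings, given below. The next by unadjusted p were PIGW, which acylates the inositol, and PIGZ, which adds the fourth mannose, and both were higher in the 2 knockdown libraries than in the control. PIGH, in the first enzyme, was much lower with NONO siRNA 2 than with siRNA 1 or the control, and PIGU, another transamidase subunit, was highest with NONO siRNA 1.

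The test was limma on log2(CPM + 1) over the 13922 genes that reached 1 CPM in at least 1 library, which all 30 GPI genes did, with calls at a Benjamini-Hochberg adjusted p under 0.05. It set the 2 knockdown libraries against the lone control library, which was assumed to vary as they do. A log2 fold below is the difference of log2(CPM + 1) from the control, which understates the change of genes of few CPM, and the SE is that of the mean over both siRNAs. In bulk RNA, fewer cells that express a gene and less of its RNA per cell cannot be told apart.

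By limma, 1 of 30 GPI genes was called higher with NONO siRNA (0.136% of all genes tested) and 0 were called lower (0.079% of all), so that 1 was called in either direction (0.215% of all). edgeR and DESeq2 on the reads recovered from the CPM values, over 16963 genes, also called 1 higher and 0 lower. Among all those genes edgeR called 86 higher and 70 lower, and DESeq2 called 139 and 62. With edgeR on the genes at 1 CPM, 0 GPI genes were called in either direction. At an unadjusted limma p under 0.05, 3 GPI genes were higher, GPAA1, PIGW and PIGZ (6.95% of all genes), and 0 were lower (4.45%). Both comparisons share the control library, so a gene low in that library stands above 0 with both siRNAs. Log2 folds were above 0 with both siRNAs for 20 of the 30 (37.8% of all genes) and below 0 with both for 5, namely PIGA, PIGB, PIGH, PIGS and PIGT (34.5% of all). On the log2(CPM + 1) scale, a 1.5-fold higher level with both siRNAs was reached by GPAA1 and PIGW (5.49% of all genes), and a 1.5-fold lower one by 0 of 30 (3.39%).

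The median log2 fold of the 30 GPI genes was 0.23 with NONO siRNA 1 and 0.20 with NONO siRNA 2, beside 0.025 and 0.0073 over all genes tested. The folds ran between -0.37 and 1.49 with siRNA 1 and between -1.48 and 1.54 with siRNA 2. Summed over the 30 genes, the level was 1186 and 1125 CPM with NONO siRNA 1 and 2 and 948 CPM in the control. Without GPAA1 the sum was 1003 and 936 CPM in the knockdown libraries and 884 CPM in the control.

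**Figure D1:**
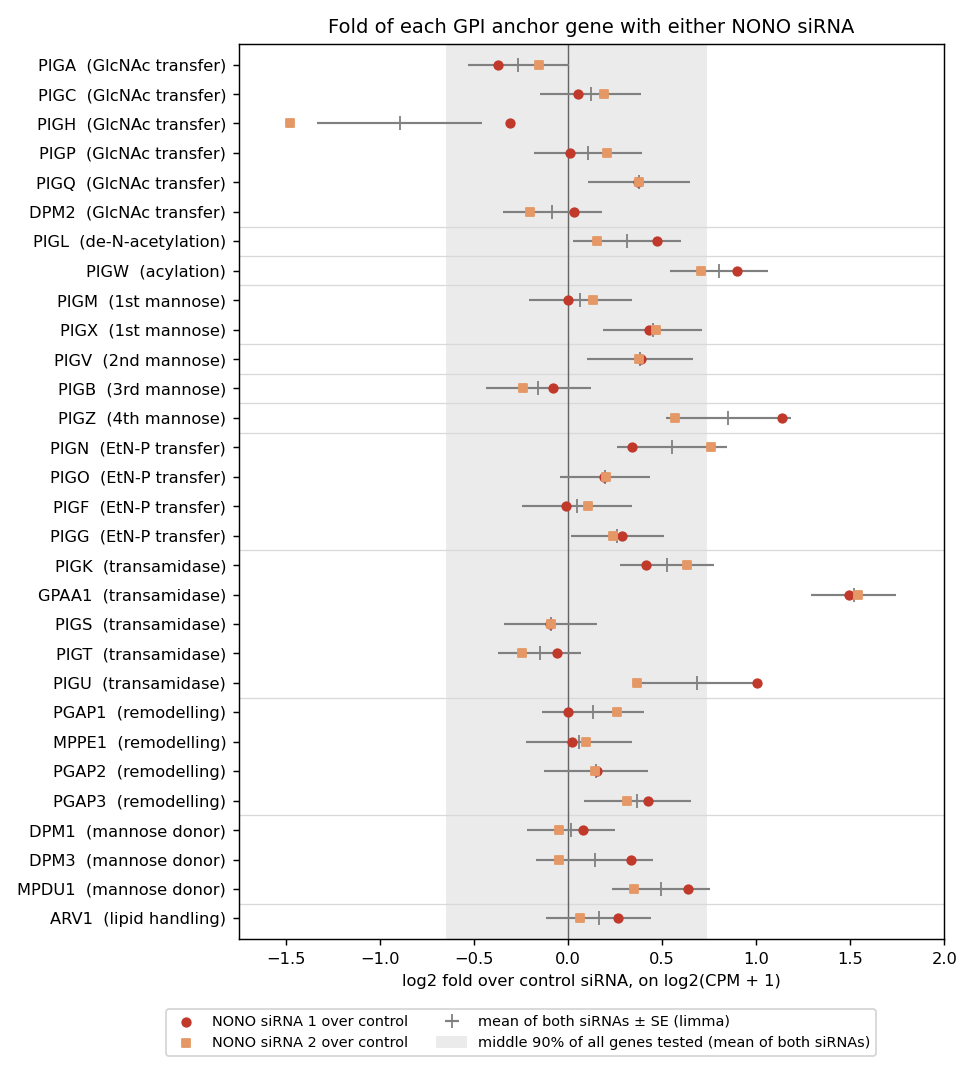
Log2 fold over the control siRNA library (horizontal axis, log2(CPM + 1) scale) of the 30 GPI genes, from the first step at the top to remodelling and supply at the bottom. Circles are NONO siRNA 1, squares NONO siRNA 2, grey ticks with bars the mean ± SE from limma, and the band spans the 5th to 95th percentile of all genes, -0.65 to 0.73; GPAA1 lies to the right of it with both siRNAs.

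The pathway begins with a transferase of several subunits that places N-acetylglucosamine on phosphatidylinositol. PIGA, its catalytic subunit, had 20.6 CPM with NONO siRNA 1 and 24.1 CPM with NONO siRNA 2, against 26.9 CPM in the control, with an limma adjusted p of 0.771. PIGH, a partner of PIGA, had 16.8 CPM with siRNA 1 and 6.92 CPM with siRNA 2, against 21.1 CPM in the control. The siRNA 2 library thus stood apart from the other two for PIGH, with 198 reads against 495 with siRNA 1 and 584 in the control.

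The log2 folds of PIGH were -0.31 and -1.48, and with a mean of -0.89 and an SE of 0.44 it did not pass (limma adjusted p = 0.495). PIGH (ENSG00000100564, GRCh38 chromosome 14, 67581955 to 67600287, minus strand) shares 19.1% of its exon bases with PLEKHH1 on the opposite strand. Whether the reads were counted by strand is not given in the sources used here, so reads of the pair may not be separable. PLEKHH1 gave 11.4 and 13.3 CPM with NONO siRNA 1 and 2 and 15.5 CPM in the control, and the siRNA 2 library was not its lowest.

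By mean log2 fold the other subunits of the first enzyme were closer to the control than PIGH. PIGQ, at 0.38, was farther from it than PIGA, at -0.26. PIGC had 18.3 and 20.2 CPM with NONO siRNA 1 and 2 and 17.6 CPM in the control, and PIGP had 7.75, 9.02 and 7.69 CPM in the same order. PIGQ had 15.8 CPM in both knockdown libraries and 11.96 CPM in the control. DPM2, which also stabilises the enzyme that makes the mannose donor, had 36.3 and 30.7 CPM with NONO siRNA 1 and 2 and 35.5 CPM in the control. Their limma adjusted p lay between 0.674 for PIGQ and 0.940 for DPM2. Only for PIGQ did the 95% counting intervals of both knockdown libraries (14.4 to 17.3 and 14.4 to 17.4 CPM) lie above that of the control (10.7 to 13.3 CPM). PIGQ shares 14.3% of its exon bases with other genes, chiefly Z98883.1 on the same strand (954 bases). The part of shared reads in its level was not tested. Summed, the 6 measured subunits gave 116 and 107 CPM with NONO siRNA 1 and 2 and 121 CPM in the control.

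PIGL removes the acetyl group in the second step, and PIGW then acylates the inositol ring in the ER lumen. PIGL had 19.2 and 15.2 CPM with NONO siRNA 1 and 2, against 13.5 CPM in the control. PIGW had 39.8 and 34.9 CPM with NONO siRNA 1 and 2, against 21.0 CPM in the control. For PIGW both knockdown libraries were above the control by more than counting error, at 1.90 times (95% interval from the reads 1.72 to 2.103) and 1.66 times (1.501 to 1.85) its CPM.

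Log2 folds reached 0.89 and 0.71 for PIGW (SE 0.26), with an unadjusted limma p of 0.0140, and it did not pass after adjustment (adjusted p = 0.273). PIGW (ENSG00000277161, GRCh38 chromosome 17, 36535020 to 36539310, plus strand) shares 20.8% of its exon bases with MYO19 on the opposite strand. MYO19 had 108 and 117 CPM with NONO siRNA 1 and 2 and 101 CPM in the control, with log2 folds of 0.10 and 0.22. The part of MYO19 reads in the level of PIGW was not tested.

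Mannoses are added from the lumenal side by a separate enzyme for each position. For the first mannose, the catalytic subunit PIGM had 15.9 and 17.5 CPM with NONO siRNA 1 and 2 and 15.9 CPM in the control. Its partner PIGX, which stabilises it, had 25.4 and 26.1 CPM with NONO siRNA 1 and 2 and 18.6 CPM in the control (log2 folds 0.43 and 0.47, limma adjusted p = 0.578). PIGM lay within counting error of the control and PIGX above it in both knockdown libraries, neither passed, and the difference between them was not tested.

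PIGV, which adds the second mannose, had 8.53 and 8.46 CPM with NONO siRNA 1 and 2 and 6.29 CPM in the control. PIGB, which adds the third, had 11.97 and 10.6 CPM with NONO siRNA 1 and 2 and 12.7 CPM in the control. PIGZ, which adds the fourth, which many anchors lack, had 8.81 and 5.63 CPM with NONO siRNA 1 and 2 and 3.47 CPM in the control. PIGZ was higher in both knockdown libraries, and the siRNA 1 library was the higher of them.

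PIGZ (ENSG00000119227, GRCh38 chromosome 3, 196946343 to 196969060, minus strand) rested on 259 and 161 reads with NONO siRNA 1 and 2 and on 96 reads in the control. Log2 folds reached 1.13 and 0.57 for PIGZ (SE 0.33), with an unadjusted limma p of 0.0306, and it did not pass after adjustment (adjusted p = 0.367). Relative to the control its CPM was 2.54 times as high with siRNA 1 (95% interval 2.002 to 3.24) and 1.62 times with siRNA 2 (1.25 to 2.11). No exon of PIGZ overlaps that of another gene in GENCODE 29. Its neighbour NCBP2-AS2, 2802 bases away, had 15.7 and 14.3 CPM with NONO siRNA 1 and 2 and 9.28 CPM in the control. DLG1, the nearest tested gene on the other side, had 77.9, 88.7 and 78.1 CPM in the same order. A link between PIGZ and NCBP2-AS2 was not tested.

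Ethanolamine phosphate, through which the anchor is later joined to the protein, is added by 3 related enzymes. PIGN, which modifies the first mannose, had 20.7 and 28.0 CPM with NONO siRNA 1 and 2 and 16.1 CPM in the control (log2 folds 0.34 and 0.76, limma adjusted p = 0.538). PIGO, which modifies the third and so makes the linking group, had 69.7 and 70.3 CPM with NONO siRNA 1 and 2 and 60.9 CPM in the control. PIGG, which modifies the second, had 45.5 and 44.0 CPM with NONO siRNA 1 and 2 and 37.1 CPM in the control.

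All 3 were thus higher in both knockdown libraries without passing, PIGN with siRNA 2 by the widest margin. PIGF, a partner that PIGO and PIGG share, had 4.15 and 4.58 CPM with NONO siRNA 1 and 2 and 4.19 CPM in the control, from 116 to 131 reads. The 3 values of PIGF overlap within counting error. PIGF also shares 25.4% of its exon bases with RHOQ and CRIPT on the opposite strand, which gave 58.2 and 8.30 CPM with NONO siRNA 1, 55.6 and 12.1 CPM with siRNA 2, and 58.8 and 14.5 CPM in the control.

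**Figure D2:**
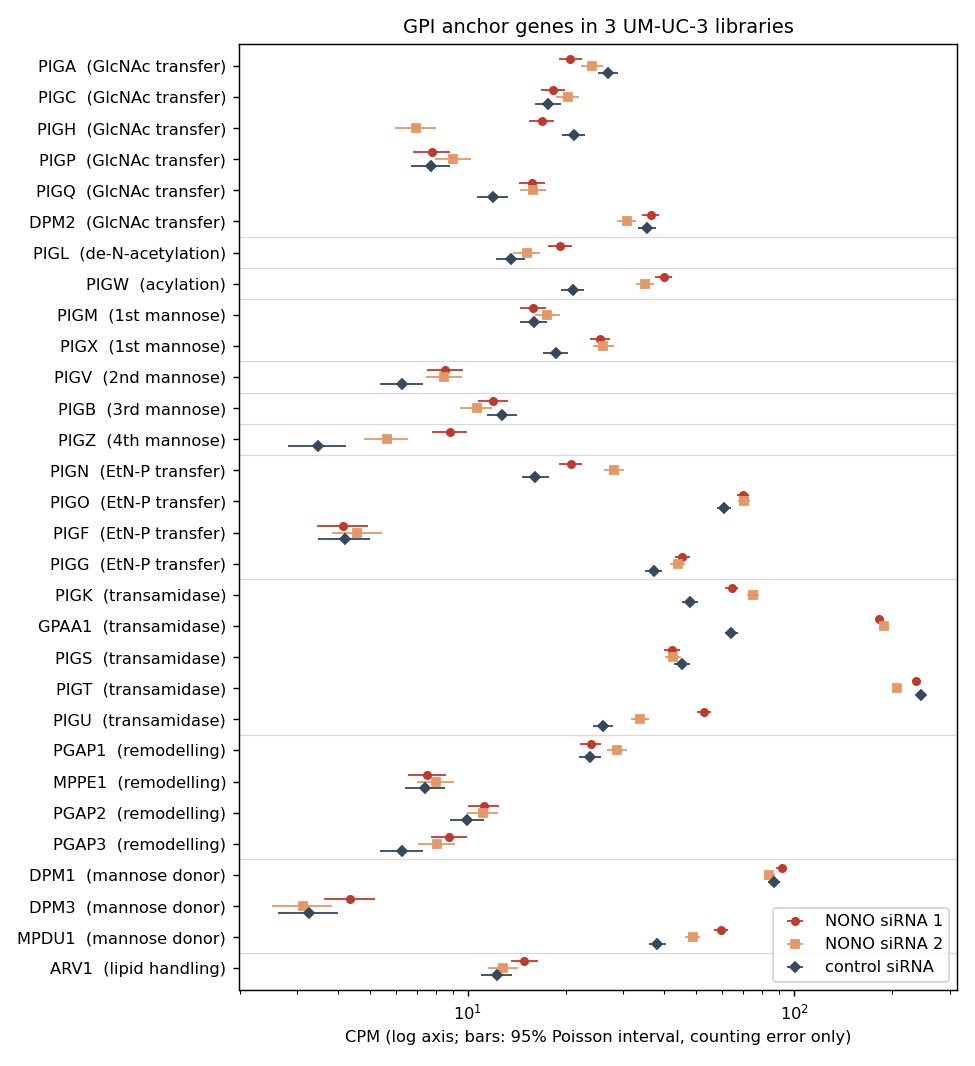
CPM of the 30 GPI genes (horizontal log axis) in the NONO siRNA 1 (circles), NONO siRNA 2 (squares) and control (diamonds) libraries, with 95% exact Poisson intervals that cover counting error only. GPAA1 stands at 183 and 189 CPM with NONO siRNA 1 and 2 and at 64.2 CPM in the control, and PIGH at 6.92 CPM with siRNA 2, apart from its 2 other libraries; CPM is not per length, so genes are not to be compared with each other by level.

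The transamidase that attaches the anchor has 5 subunits. GPAA1, which binds the anchor within the complex and is needed to form the bond between protein and anchor, had 183 CPM with NONO siRNA 1 and 189 CPM with NONO siRNA 2, against 64.2 CPM in the control. These were 5372 and 5406 reads in the knockdown libraries and 1778 reads in the control. The counting intervals of the 2 knockdown libraries overlapped, and both lay far above that of the control.

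Relative to the control, GPAA1 was 2.84 times as high with siRNA 1 (95% interval 2.69 to 3.002) and 2.94 times with siRNA 2 (2.79 to 3.11). Its log2 folds were 1.49 and 1.54, and it rose in limma's test with an SE of 0.22 for the mean of 1.52 (adjusted p = 0.0476). It ranked 29th by p and 34th by mean fold among the 13922 genes. The call lay close to the threshold: GPAA1 also passed with edgeR (adjusted p = 0.0121), DESeq2 (0.000291) and upper-quartile scaling (0.00336), but not with TMM scaling (0.0898), a pseudocount of 0.1 (0.0574), a mean of at least 5 CPM (0.0788), no trend (0.104), edgeR on the genes at 1 CPM (0.129) or no filter (0.566). Its log2 fold stayed between 1.49 and 1.54 under all of these and with either siRNA left out.

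GPAA1 (ENSG00000197858) lies on GRCh38 chromosome 8, 144082590 to 144086216, plus strand, and no exon of another gene overlaps its exons in GENCODE 29. The nearest tested genes on either side did not move with it. EXOSC4, an exosome subunit 1942 bases away, had 11.6 and 10.2 CPM with NONO siRNA 1 and 2 and 13.5 CPM in the control. CYC1, a mitochondrial cytochrome 8810 bases away on the other side, had 302 and 228 CPM with NONO siRNA 1 and 2 and 288 CPM in the control. Neither neighbour was higher than the control with both siRNAs.

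The other transamidase subunits did not pass. PIGK, the protease that cleaves the signal, had 64.4 and 75.1 CPM with NONO siRNA 1 and 2 and 48.0 CPM in the control (log2 folds 0.41 and 0.63, limma adjusted p = 0.477). PIGU had 53.0 and 33.7 CPM with NONO siRNA 1 and 2 and 26.0 CPM in the control (log2 folds 1.00 and 0.36, limma adjusted p = 0.463). Both were above the control in either knockdown library, PIGK more with siRNA 2 and PIGU more with siRNA 1.

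PIGT, which is joined to PIGK by a disulphide bond and holds the complex together, had 236 and 208 CPM with NONO siRNA 1 and 2 and 246 CPM in the control. PIGS had 42.3 and 42.5 CPM with NONO siRNA 1 and 2 and 45.3 CPM in the control. PIGT and PIGS, with log2 folds between -0.24 and -0.06, were therefore slightly below the control in both knockdown libraries. Log2 folds of the 5 subunits thus lay on both sides of 0, and differences between the subunits were not tested.

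Levels per kilobase of 1 chosen transcript allow different genes to be set roughly side by side. On this scale PIGT was the highest subunit in all 3 libraries. It gave 105 and 92.5 CPM per kb with NONO siRNA 1 and 2 and 110 in the control. GPAA1 came next, at 87.9 and 91.0 CPM per kb with NONO siRNA 1 and 2 and 30.9 in the control. It stood at 83.7% and 98.4% of PIGT in the knockdown libraries and at 28.2% of PIGT in the control. These levels depend on the transcript chosen. All exons of PIGT together span 19670 bases, against 2245 in its transcript, and those of GPAA1 span 3268 against 2078. The part of reads from exons outside the chosen transcripts was not tested.

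GPAA1 thus approached PIGT in level in both knockdown libraries. Its share of the summed level of the 5 subunits per kb was 34.6% and 38.7% with NONO siRNA 1 and 2 and 16.9% in the control, while the share of PIGT was 41.3% and 39.3% in the knockdown libraries and 60.0% in the control. PIGU gave 32.5 and 20.7 CPM per kb with NONO siRNA 1 and 2 and 15.9 in the control. PIGK and PIGS stayed between 10.5 and 16.3 CPM per kb in the 3 libraries. These are levels of RNA, which do not show how much of the complex was assembled.

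**Figure D3:**
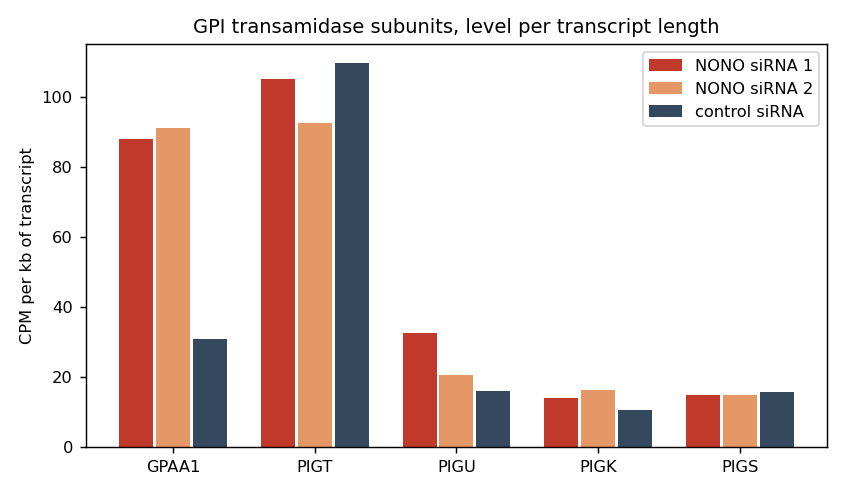
Level of the 5 GPI transamidase subunits in CPM per kb of 1 transcript per gene (vertical axis) in the NONO siRNA 1, NONO siRNA 2 and control libraries, 1 library per bar and so without error bars. The GPAA1 bars stand at 87.9 and 91.0 with NONO siRNA 1 and 2 and at 30.9 in the control. PIGS is near the control with both siRNAs, and PIGT stands at 105 and 92.5 with NONO siRNA 1 and 2 and at 110 in the control.

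After attachment the anchor is trimmed by 4 further genes, and none passed. PGAP1, which removes the acyl chain from the inositol, had 23.8 and 28.6 CPM with NONO siRNA 1 and 2 and 23.8 CPM in the control. MPPE1, which removes an ethanolamine phosphate, had 7.51 and 7.97 CPM with NONO siRNA 1 and 2 and 7.41 CPM in the control. Both lay near the control.

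PGAP2 and PGAP3 exchange the fatty acid of the anchor in the Golgi. PGAP2 had 11.2 and 11.1 CPM with NONO siRNA 1 and 2 and 9.97 CPM in the control. PGAP3 had 8.77 and 8.04 CPM with NONO siRNA 1 and 2 and 6.29 CPM in the control (limma adjusted p = 0.699). Of the 4 genes, PGAP3 had the highest mean log2 fold, 0.37.

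Dolichol phosphate mannose, the donor of every mannose of the anchor, is also used in protein glycosylation. DPM1, the catalytic subunit of the synthase, had 91.8 and 84.1 CPM with NONO siRNA 1 and 2 and 86.9 CPM in the control. DPM3, which tethers DPM1 to the membrane, had 4.35 and 3.11 CPM with NONO siRNA 1 and 2 and 3.25 CPM in the control, from 89 to 128 reads. MPDU1, which is needed for use of the donor in the lumen, had 59.8 and 48.9 CPM with NONO siRNA 1 and 2 and 38.1 CPM in the control.

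Of these, only MPDU1 stood above the control with both siRNAs (log2 folds 0.64 and 0.35, limma adjusted p = 0.537). MPDU1 shares 11.1% of its exon bases with genes on the opposite strand, chiefly FXR2, which had 65.8 and 61.4 CPM with NONO siRNA 1 and 2 and 58.5 CPM in the control. ARV1, an ER membrane protein that takes part in lipid handling and in the early GPI steps, had 14.9 and 12.8 CPM with NONO siRNA 1 and 2 and 12.2 CPM in the control.

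Between the 2 NONO siRNAs, each with 1 library and so without a test, PIGH and PIGU were at least 1.5-fold higher with siRNA 1 than with siRNA 2 on the log2(CPM + 1) scale (4.11% of all genes tested). The log2 ratio of siRNA 1 over siRNA 2 was 1.17 for PIGH and 0.64 for PIGU. For PIGH, 40 of the 13922 genes, PIGH included, had a ratio at least as high. At least 1.5-fold higher with siRNA 2 were 0 of 30 GPI genes (6.92% of all genes), and PIGN came nearest, at a log2 ratio of -0.42. The log2 ratio of GPAA1 between the siRNAs was -0.05.

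Sites for the siRNA seeds were searched in 1 protein-coding transcript per gene of GENCODE 29, for 11792 of the genes tested and all 30 GPI genes. A site is the reverse complement of the seed, searched on the transcript strand alone. The site of the control siRNA's labelled strand, TCGGAGA, occurs in GPAA1, in the coding sequence at positions 272 to 278 of transcript GPAA1-201, and in MPPE1, against 11.6% of all transcripts searched. The 969 genes that hold it in their coding sequence had median log2 folds of 0.19 with NONO siRNA 1 and 0.13 with NONO siRNA 2, and 13.1% of them were at least 1.5-fold higher than the control with both. Genes without it had medians of -0.00051 and -0.021. For the other 5 seed sites, coding-site genes had medians between -0.05 and 0.05 with siRNA 1 and between -0.13 and 0.05 with siRNA 2, and 3.88% to 6.78% of them were at least 1.5-fold higher with both. In the 3′ untranslated region (3′ UTR), 1744 genes hold CATTCAT (NONO siRNA 1, opposite strand). Their medians were -0.12 with siRNA 1 and 0.025 with siRNA 2, against 0.037 and -0.021 for genes without it. The 342 with TGTCACG there (control siRNA, opposite strand) had 0.11 and 0.083, against 0.0087 and -0.012 without it. The 229 with TCGGAGA there had 0.18 and 0.14. The rest had medians between -0.034 and 0.028 with siRNA 1 and between -0.021 and 0.0099 with siRNA 2.

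MPPE1 holds TCGGAGA in its coding sequence and lay near the control, with log2 folds of 0.02 and 0.09. The part of this site in the level of GPAA1 in the control library was not tested. GPAA1 also holds the site of the labelled strand of NONO siRNA 1, ACTTCGC, which occurs in 6.22% of transcripts and in 4 GPI genes, the others being DPM2, MPPE1 and PIGO. In the transcripts searched, PIGH, low with NONO siRNA 2, holds no site of either strand of NONO siRNA 2. Neither PIGW nor PIGZ holds a site of any of the 6 strands. Other transcripts and imperfect sites were not searched, and the part of seed pairing in the levels of these genes was not tested.

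The strands that pair with NONO have sites in 7 GPI genes for siRNA 1 (CATTCAT, in 22.5% of transcripts) and in 2 for siRNA 2 (AGTTCGA, in 10.8%). The 7 are DPM2, PGAP1, PGAP2, PIGC, PIGK, PIGM and PIGO, and their log2 folds with siRNA 1 lay between -0.0013 and 0.41, the lowest being that of PIGM. The 2 are PGAP1 and PIGN, whose log2 folds with siRNA 2 were 0.26 and 0.76. The labelled strand of NONO siRNA 2 has sites for its seed (AGGGATG, in 24.2% of transcripts) in 8 GPI genes, and the opposite control strand (TGTCACG, in 7.10%) has them in PIGG and PIGP.

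The windows below show the control site of MPPE1 and sites of the NONO-pairing strands in PGAP1, which holds sites of both, and in the transamidase gene PIGK. They are GENCODE 29 transcript sequence, with the 7 bases of the seed site in capitals and 8 bases on either side, at positions 1973 to 1995 of MPPE1-211 (chromosome 18, coding), 992 to 1014 of PGAP1-201 (chromosome 2, coding), 6386 to 6408 of PGAP1-201 (3′ UTR) and 3788 to 3810 of PIGK-202 (chromosome 1, 3′ UTR). In PGAP1 the pairing with the siRNA 2 strand runs over 10 bases without a break, and PGAP1 was at 28.6 CPM with siRNA 2 against 23.8 CPM in the control. PGAP1-201 holds further 3′ UTR sites of the siRNA 1 strand, at positions 6818 to 6824 and 10130 to 10136, whose windows are not printed.
MPPE1, control siRNA labelled strand: cctctgtaTCGGAGAagtgatgc
PGAP1, NONO siRNA 2 opposite strand: ttgactacAGTTCGAgcattctt
PGAP1, NONO siRNA 1 opposite strand: tgtcttgtCATTCATgtgatact
PIGK, NONO siRNA 1 opposite strand: acgaaagaCATTCATttgcagtt

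The products of the pathway are the proteins that carry the anchor. Of 95 genes of GPI-anchored proteins, 62 had a value in all 3 libraries and 45 were tested. By limma 0 were called in either direction (0.215% of all genes tested). At an unadjusted limma p under 0.05, 2 were higher and 5 lower (6.95% and 4.45% of all genes tested). edgeR and DESeq2 each called 1, SEMA7A, lower, beside 70 and 62 lower among all 16963 genes they fitted. Log2 folds were above 0 with both siRNAs for 11 and below 0 with both for 18 (37.8% and 34.5% of all genes), and the medians were -0.015 with NONO siRNA 1 and -0.20 with NONO siRNA 2.

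SEMA7A, a semaphorin on the cell surface, had 5.03 and 5.14 CPM with NONO siRNA 1 and 2 and 17.8 CPM in the control. Its log2 folds were -1.64 and -1.61, with adjusted p of 0.0643 in limma, 0.0101 in edgeR and 0.00276 in DESeq2. In limma it passed with upper-quartile scaling (0.00871). It did not pass in limma with TMM scaling (0.0975), a pseudocount of 0.1 (0.0710), a mean of at least 5 CPM (0.0963), no trend (0.0961) or no filter (0.566). Nor did it pass with edgeR on the genes at 1 CPM (0.127). PLAUR, the urokinase receptor, had 111 and 191 CPM with NONO siRNA 1 and 2 and 288 CPM in the control (limma adjusted p = 0.268). RTN4RL2, a Nogo receptor homologue, had 3.47 and 4.62 CPM with NONO siRNA 1 and 2 and 8.96 CPM in the control (limma adjusted p = 0.244).

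These 3 were lower in both knockdown libraries. The glypican GPC6 was higher in both, at 45.3 and 47.9 CPM with NONO siRNA 1 and 2 and 29.4 CPM in the control (limma adjusted p = 0.367). The 3 listed genes of highest CPM in the control, chosen after their values were seen, did not pass. NT5E, an ectonucleotidase, had 1735 and 2288 CPM with NONO siRNA 1 and 2 and 1660 CPM in the control. PRNP had 869, 825 and 791 CPM and CD59 had 422, 285 and 336 CPM in the same order.

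The lists that supply the pathway had 0 called genes by limma (0.215% of all genes tested). In phosphatidylinositol supply, 4 genes were tested and 2 were higher at an unadjusted p under 0.05 (6.95% of all genes tested). CDS2, which makes the CDP-diacylglycerol used for phosphatidylinositol, had 197 and 202 CPM with NONO siRNA 1 and 2 and 111 CPM in the control (log2 folds 0.83 and 0.86, limma adjusted p = 0.175). CDIPT, the phosphatidylinositol synthase, had 25.5 and 24.2 CPM with NONO siRNA 1 and 2 and 14.3 CPM in the control (log2 folds 0.79 and 0.72, limma adjusted p = 0.314). The transfer protein genes lay on either side of 0, PITPNB with log2 folds of 0.17 and 0.03 and PITPNA with -0.20 and -0.59.

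Dolichol phosphate, from which the mannose donor is made, was represented by 7 genes, of which 3 had log2 folds above 0 with both siRNAs and 2 below (37.8% and 34.5% of all genes). NUS1, a subunit of the dehydrodolichyl diphosphate synthase, had 134 and 156 CPM with NONO siRNA 1 and 2 and 117 CPM in the control, and its partner DHDDS had 46.9, 36.5 and 53.4 CPM in the same order. SRD5A3, the polyprenol reductase, had log2 folds of 0.24 and 0.37, and ALG5, which makes the glucose donor, had 0.32 and 0.26. None of the 7 had an unadjusted limma p under 0.05.

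Assembly of the dolichol-linked oligosaccharide, which draws on the same donor, had 14 genes tested, 8 above 0 and 1 below 0 with both siRNAs (37.8% and 34.5% of all genes). ALG10B had 13.5 and 26.1 CPM with NONO siRNA 1 and 2 and 10.7 CPM in the control, and stood out with siRNA 2. The mannosyltransferase ALG9 was the one below 0 with both, at -0.32 and -0.35, and the glucosyltransferase ALG6 had 0.28 and 0.31.

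The list of other users of dolichol phosphate mannose, which also holds the mannose-supply enzyme PMM1, had 11 of 13 genes tested. Of these, 5 were above 0 and 0 below 0 with both siRNAs (37.8% and 34.5% of all genes). DPY19L1, a C-mannosyltransferase, had 134 and 172 CPM with NONO siRNA 1 and 2 and 94.9 CPM in the control (limma adjusted p = 0.335). The O-mannosyltransferase POMT2 had log2 folds of 0.51 and 0.41, TMTC4 had 0.18 and 0.65, and the phosphomannomutase PMM1 had 0.44 and 0.30. DPY19L1 alone had an unadjusted limma p under 0.05.

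Cargo receptors and other genes for ER exit of anchored proteins numbered 23, of which 11 were above 0 and 6 below 0 with both siRNAs (37.8% and 34.5% of all genes). At an unadjusted p under 0.05, 3 were higher (6.95% of all genes). CALR, an ER chaperone, had 1015 and 818 CPM with NONO siRNA 1 and 2 and 498 CPM in the control (log2 folds 1.03 and 0.72, limma adjusted p = 0.152). TMED9, a p24 family cargo receptor, had 110 and 96.5 CPM with NONO siRNA 1 and 2 and 67.0 CPM in the control. SURF4 had 327, 332 and 222 CPM in the same order, and SEC13, a COPII coat subunit, had log2 folds of 0.60 and 0.37. All of them were higher in both knockdown libraries without passing.

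The list for later maturation, release and turnover of the anchor, which also holds the ER lipid scramblase CLPTM1L, had 5 of 7 genes tested. Of these, 3 were above 0 and 2 below 0 with both siRNAs (37.8% and 34.5% of all genes). PGAP4, which adds a sugar side branch, had 10.8 and 9.93 CPM with NONO siRNA 1 and 2 and 7.95 CPM in the control. PGAP6, a phospholipase that acts on anchored proteins, had log2 folds of 0.11 and 0.35, and CLPTM1L had 0.13 and 0.03. None of the 5 had an unadjusted limma p under 0.05.

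**Figure D4:**
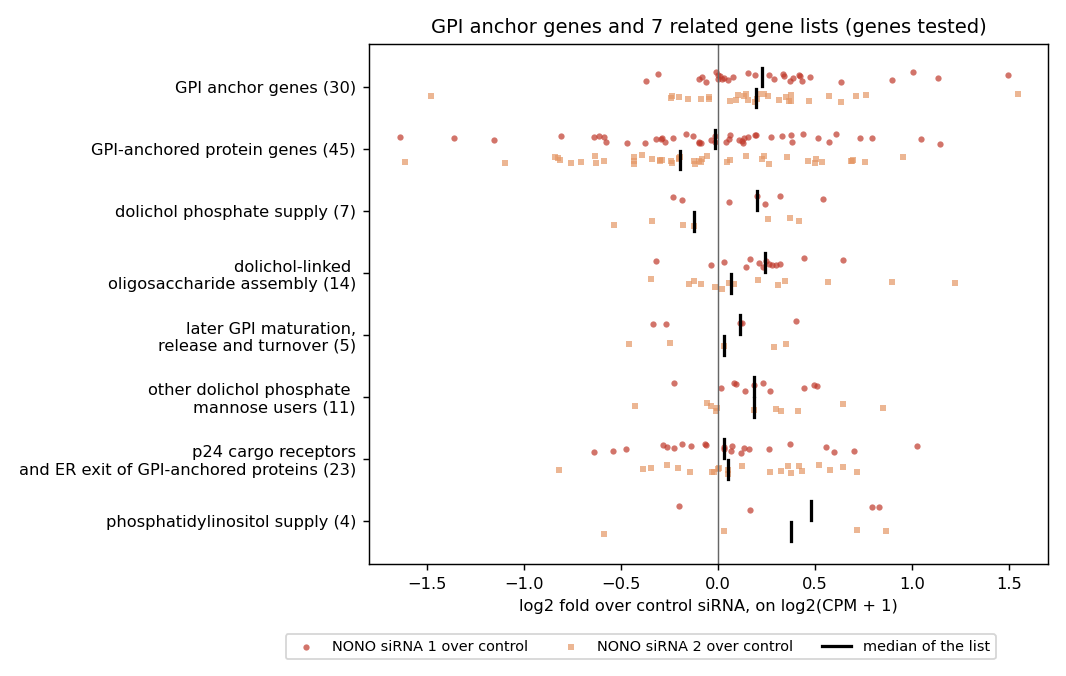
Log2 fold over the control siRNA library (horizontal axis, log2(CPM + 1) scale) of each tested gene of the GPI anchor pathway and 7 related lists, with circles for NONO siRNA 1, squares for NONO siRNA 2 and black bars at the medians. The GPI anchor genes have medians of 0.23 and 0.20 with NONO siRNA 1 and 2, and the genes of GPI-anchored proteins -0.015 and -0.20.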

How the data were processed

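Total RNA of UM-UC-3 cells was sequenced as 100 bp pairs. Per the submitters' processing notes, which give no roles, the tools include HISAT2 2.1.0, HTSeq 0.6.1 and bcl2fastq 2.19.1, and hg19 and GRCh37 are named as builds. The annotation release and whether reads were counted by strand were not given in the sources used here. Values were deposited by the authors in a table for each library as normalized values, and the numbers themselves show CPM without length normalization. Within 0.01 reads, 99.3% and 99.5% of values with NONO siRNA 1 and 2 and 99.3% in the control were whole reads, and the rest, at half-read values, were taken as 0 reads. The tables list 22281 and 22464 genes with NONO siRNA 1 and 2 and 22281 in the control.

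The 21308 genes in all 3 were used, and 21049 had a symbol in the name table. limma 3.58.1 with a trend (R 4.3.3) was fitted on log2(CPM + 1), with 1 residual and 7.68 prior degrees of freedom. P-values are two-sided and rest on the spread between 2 siRNAs, which may include technical spread and off-target differences. The recovered reads of 16963 genes were also fitted with DESeq2 1.42.0 and edgeR 4.0.16 (quasi-likelihood). The fits were also run on simulated counts, with a fixed spread between libraries and no effects of single siRNAs. Such counts cannot show how the fits perform where the knockdown libraries differ by siRNA. Intervals on CPM are exact Poisson and those on ratios exact binomial, at 95%, and cover counting error only, as read pairs are not independent molecules. Coordinates and transcripts are those of GENCODE 29 on GRCh38, not of the deposited build, and 1 protein-coding transcript per gene served for lengths and sites.

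The members and lists were chosen with earlier results of these data known. Every GPI gene with a value in all 3 libraries is named, and from each other list up to 4 genes of mean at least 5 CPM with the largest smaller absolute log2 fold of 1 sign. A result that this rule took is not reported here. Alternatives were TMM and upper-quartile scaling, other filters and pseudocounts, no trend, and leaving out each siRNA.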

Additional observations from a re-analysis of the deposited data

How the results depend on the processing

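No paired analysis was possible because the control group has 1 library, so the groups share fewer than 2 replicate numbers. The count of GPI genes called higher was 1 with limma, edgeR, DESeq2 and upper-quartile scaling, and 0 with TMM scaling, no trend, a mean of at least 5 CPM, no filter, a pseudocount of 0.1 and edgeR on genes at 1 CPM, the last chosen after seeing the data. The related lists had 0 genes called lower with limma and 1 with edgeR, DESeq2 and upper-quartile scaling. Over all genes, limma called 19 higher and 11 lower. The counts were 139 and 62 with DESeq2, 86 and 70 with edgeR, 161 and 80 with upper-quartile scaling, 2 and 3 with TMM scaling, 2 and 3 at a mean of at least 5 CPM, 0 and 3 without a trend, 0 and 1 with edgeR on genes at 1 CPM, and 0 and 0 without a filter, where 1882 genes had an unadjusted p under 0.05 and NONO also lost its call (limma adjusted p = 0.566). The cause was not tested. The median log2 fold of the GPI genes was 0.16 and became 0.13 with TMM scaling and 0.18 at a mean of at least 5 CPM. With either siRNA left out it was 0.20 to 0.23, the genes above the control numbered 22 to 23 and those below 7 to 8. The log2 fold of DPM1, 0.016, reversed to -0.012 with DESeq2, -0.017 with TMM scaling, -0.0096 with edgeR and -0.0033 with edgeR on genes at 1 CPM. With siRNA 2 left out DPM2, PIGM and PIGF also changed sign, to 0.033, -0.0013 and -0.012, as did DPM1 and DPM3 with siRNA 1 left out, to -0.047 and -0.048. The other GPI genes kept their sign under the alternatives run, and only GPAA1 lost its call, under 6 of them. Genes of few reads, such as DPM3 with 89 to 128, are limited by depth.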
